A study of Mus musculus with 4 samples.

Results

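The 9 genes described here encode chemokine ligands: Cxcl9, Cxcl10, Cxcl16, Cxcl2, Ccl2, Ccl17, Ccl22, Ccl24 and Xcl1. They were chosen by name, and each matched 1 gene symbol, so that they make up 9 of the 32285 genes counted. Their unique molecular identifiers (UMIs, each standing for 1 captured transcript) were followed in immune cells of mouse liver.

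The study followed liver cancer in mice that lack the microRNA miR-146a, with single-cell RNA sequencing (10x Genomics) of CD45+ cells sorted from liver by flow cytometry. All mice were female C57BL/6. The young WT library came from wild-type mice about 8 weeks old for which no treatment was stated. The other 3 libraries came from mice 36 weeks old by their labels that had received diethylnitrosamine (DEN), a liver carcinogen, at 25 mg/kg on day 14 and a choline-deficient high-fat diet (CDHFD) from weaning on day 21. They were wild type (treated WT below), deficient in miR-146a (miR-146a-/-) or deficient in both miR-146a and the chemokine gene Ccl5 (miR-146a-/- Ccl5-/-, DKO below). Each group had 1 library, and how many mice a library pooled was not stated, so that no replicate error, test or p-value could be given. Intervals below are exact Poisson or binomial 95% intervals and cover counting error alone. Sets of 4 values are given in the order young WT, treated WT, miR-146a-/- and DKO.

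Of 39121 barcodes, 36286 were kept, which had 600 to 6000 detected genes and at most 5% mitochondrial UMIs. The libraries kept 10283, 8329, 7824 and 9850 cells with 83882711, 84158257, 79464882 and 96747482 UMIs in all and medians of 6782, 8210, 7910.0 and 7558 UMIs per cell. Ptprc, which encodes CD45, was detected in 98.4%, 97.9%, 98.1% and 98.2% of kept cells. Of the kept barcodes, 648 occurred in at least 2 libraries, and each pair of libraries shared between 1.18% and 1.52% of the kept barcodes of the smaller one. Ccl5, which is deleted in the DKO, stood at 6174, 12544, 12496 and 65.4 CPM (UMI counts of a gene divided by all UMIs of the same cells, times 10 to the power of 6) over all kept cells. Markers of cells that a CD45 sort should remove were low: 4 hepatocyte markers summed to 15.4, 15.3, 9.07 and 10.5 CPM with Alb the most abundant. The sums of 4 endothelial markers were 9.18, 7.17, 3.96 and 6.59 CPM, with Clec4g leading in young WT and Kdr in the others. For 4 stellate cell markers they were 0.453, 0.689, 0.453 and 0.517 CPM, led by Dcn. For 3 cholangiocyte markers they were 11.0, 15.7, 20.1 and 15.5 CPM, nearly all from Epcam, and Krt19 was at 0 in all 4 libraries.

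Chemokines bind G protein-coupled receptors on leukocytes and direct where these cells move and stay. In the liver, ligands of Cxcr3 and Cxcr6 are known for placing T and NK cells, ligands of Ccr2 and Cxcr2 for drawing monocytes and neutrophils into injured tissue, ligands of Ccr4 for drawing regulatory T cells, and Xcl1 for attracting the dendritic cells that bear Xcr1. The microRNA miR-146a is known to restrain NF-kB signalling through Irak1 and Traf6, and NF-kB and interferon signalling are known to induce several of these ligands.

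Cells were placed in 16 classes by UMIs of marker genes, 8 myeloid and 8 lymphoid. The class names stand for ranges of marker UMIs and not for proven cell types. The classes held 26972 cells (74.3% of kept cells). Another 3605 barcodes (9.93%) carried markers of more than 1 lineage and were set apart as mixed-lineage barcodes in place of a doublet caller, and 5709 (15.7%) met no gate. The mixed-lineage share was 4.82%, 14.3%, 10.5% and 11.2% in the 4 libraries, and the share with no class was 18.7%, 18.3%, 12.2% and 13.3%. Cells within 1 UMI of their gate numbered 27 of 909 classical monocytes, 99 of 2069 patrolling monocytes, 22 of 490 C1q macrophages, 4 of 176 neutrophils, 7 of 397 cDC1, 47 of 475 cDC2, 3 of 160 mature dendritic cells (DC) and 19 of 438 pDC. Among lymphoid classes they numbered 795 of 2117 CD4 T, 98 of 558 Treg, 189 of 7820 CD8 T, 129 of 3732 double-negative T, 56 of 2588 NK, 171 of 2115 ILC1, 7 of 2893 B and 2 of 35 plasma cells, so that CD4 T and Treg cells had the largest shares near the cut. Median UMIs of T cell, B cell and NK markers in the myeloid classes were 0 or 1. The gates themselves kept each of these sums below 5 UMIs in myeloid classes, so that the low medians are no check of purity.

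Some clusters of cells came nearly all from 1 library. Cluster 12 had 826 of its 902 cells in DKO, clusters 16 and 38 had 707 of 788 and 222 of 227 in treated WT, all 179 cells of cluster 41 lay in miR-146a-/-, and all 42 cells of cluster 48 lay in young WT. Cluster 41, led by the granule genes Ctsg, Prtn3, Mpo and Elane, met no gate in 95.5% of its cells. With 1 library per group, such clusters cannot be told apart from their library. CD8 T and double-negative T cells were not compared between libraries, because 3 clusters of CD8 T and 1 of double-negative T had more leading markers of another class than of their own.

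Cxcl9 (ENSMUSG00000029417, chr5:92321347-92328079, - strand, GRCm38) and Cxcl10 (ENSMUSG00000034855, chr5:92346638-92348889, - strand) encode ligands of Cxcr3, the receptor of activated T and NK cells. The gap between the 2 genes was 18.6 kb. Cxcl2 (ENSMUSG00000058427, chr5:90903871-90905938, + strand), a ligand of the neutrophil receptor Cxcr2, lay 1.42 Mb from Cxcl9 on the same chromosome. Of the 6 members that fell in classical monocytes of miR-146a-/-, these 3 had a promoter entry, and their promoters are shown from 250 bases before to 50 bases after the start of the gene in RefSeq (GRCm38.p6), each 5′ to 3′ on the strand of the gene. Capitals mark the ISRE core, an interferon motif searched as TTCNNTTTC, and the kappaB core, an NF-kB motif searched as GGNNTTTCC, both on either strand.
Cxcl9 promoter, chr5:92328030-92328329, - strand: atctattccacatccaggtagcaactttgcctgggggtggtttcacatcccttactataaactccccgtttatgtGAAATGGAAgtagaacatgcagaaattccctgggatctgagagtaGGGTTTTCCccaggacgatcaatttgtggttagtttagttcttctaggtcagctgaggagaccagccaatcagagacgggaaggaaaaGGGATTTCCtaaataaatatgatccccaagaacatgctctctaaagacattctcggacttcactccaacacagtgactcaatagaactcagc
Cxcl10 promoter, chr5:92348840-92349139, - strand: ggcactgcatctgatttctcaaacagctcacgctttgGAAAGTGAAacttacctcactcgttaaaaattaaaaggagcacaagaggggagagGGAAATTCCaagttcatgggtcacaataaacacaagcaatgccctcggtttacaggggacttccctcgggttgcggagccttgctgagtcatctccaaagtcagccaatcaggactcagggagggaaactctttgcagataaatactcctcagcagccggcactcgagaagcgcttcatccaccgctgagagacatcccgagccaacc
Cxcl2 promoter, chr5:90903649-90903948, + strand: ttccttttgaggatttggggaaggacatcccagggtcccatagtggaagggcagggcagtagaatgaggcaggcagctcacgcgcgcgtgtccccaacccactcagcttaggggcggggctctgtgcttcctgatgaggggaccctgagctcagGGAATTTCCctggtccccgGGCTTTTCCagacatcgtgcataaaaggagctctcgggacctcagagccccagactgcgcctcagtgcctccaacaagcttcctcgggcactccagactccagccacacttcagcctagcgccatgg
Positions count from that RefSeq start. It was the start printed above for Cxcl9 and Cxcl10, and for Cxcl2 it was chr5:90903899, 28 bases inside the gene as printed. The ISRE core began at -175 in Cxcl9 and at -213 in Cxcl10. The kappaB core began at -130 and -42 in Cxcl9, at -158 in Cxcl10 and at -96 and -77 in Cxcl2, and none of these matches overlapped another. Of 32851 promoters of the same length, 8.56% held the ISRE core and 5.82% the kappaB core. A promoter was found for 6 of the 9 genes (Cxcl9, Cxcl10, Cxcl2, Ccl17, Ccl22 and Xcl1), of which 2 held the ISRE core and 3 the kappaB core, so that Ccl17, Ccl22 and Xcl1 held neither. The GAS motif, TTCNNNGAA, was found in Ccl17 at -99, in 1 of these 6 and in 8.30% of all promoters. A match describes letters in the window and does not show a working site.

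The mature microRNA deleted in the miR-146a-/- and DKO mice is shown with its seed, bases 2 to 8, in capitals (RefSeq, GRCm38.p6, chr11:43374435-43374456, - strand).
miR-146a-5p: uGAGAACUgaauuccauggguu
The sequence complementary to this seed was found in the longest annotated 3′ UTR of 0 of the 9 chemokine genes, whose UTRs ran from 141 to 2452 bases. Among 21047 genes with a 3′ UTR, 11.1% held a match, and among the 15142 with a UTR in that range of lengths 7.35% did. The known targets Irak1 and Traf6 held 2 and 4 matches, and Ccl5 held 0.

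Together the 9 genes took 574, 781, 474 and 565 CPM over all kept cells, of which Xcl1 alone took 462, 492, 313 and 361. Without Xcl1 the sums were 111, 289, 161 and 204 CPM. The highest sum lay in treated WT either way, and the lowest in miR-146a-/- with Xcl1 and in young WT without it. Xcl1 UMIs lay mostly in lymphoid classes (82.6% of 140018). The myeloid classes held 63.5% of the UMIs of Ccl22, 57.9% of Cxcl2, 53.7% of Cxcl16, 51.4% of Ccl2, 49.9% of Ccl17 and 48.4% of Cxcl9. Cxcl10 was spread wider, with 26.8% of its 17172 UMIs in myeloid classes and 28.5% in lymphoid ones. Mixed-lineage barcodes held much of each myeloid ligand, from 32.2% of Cxcl2 to 58.8% of Ccl24 UMIs.

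**Figure D1:**
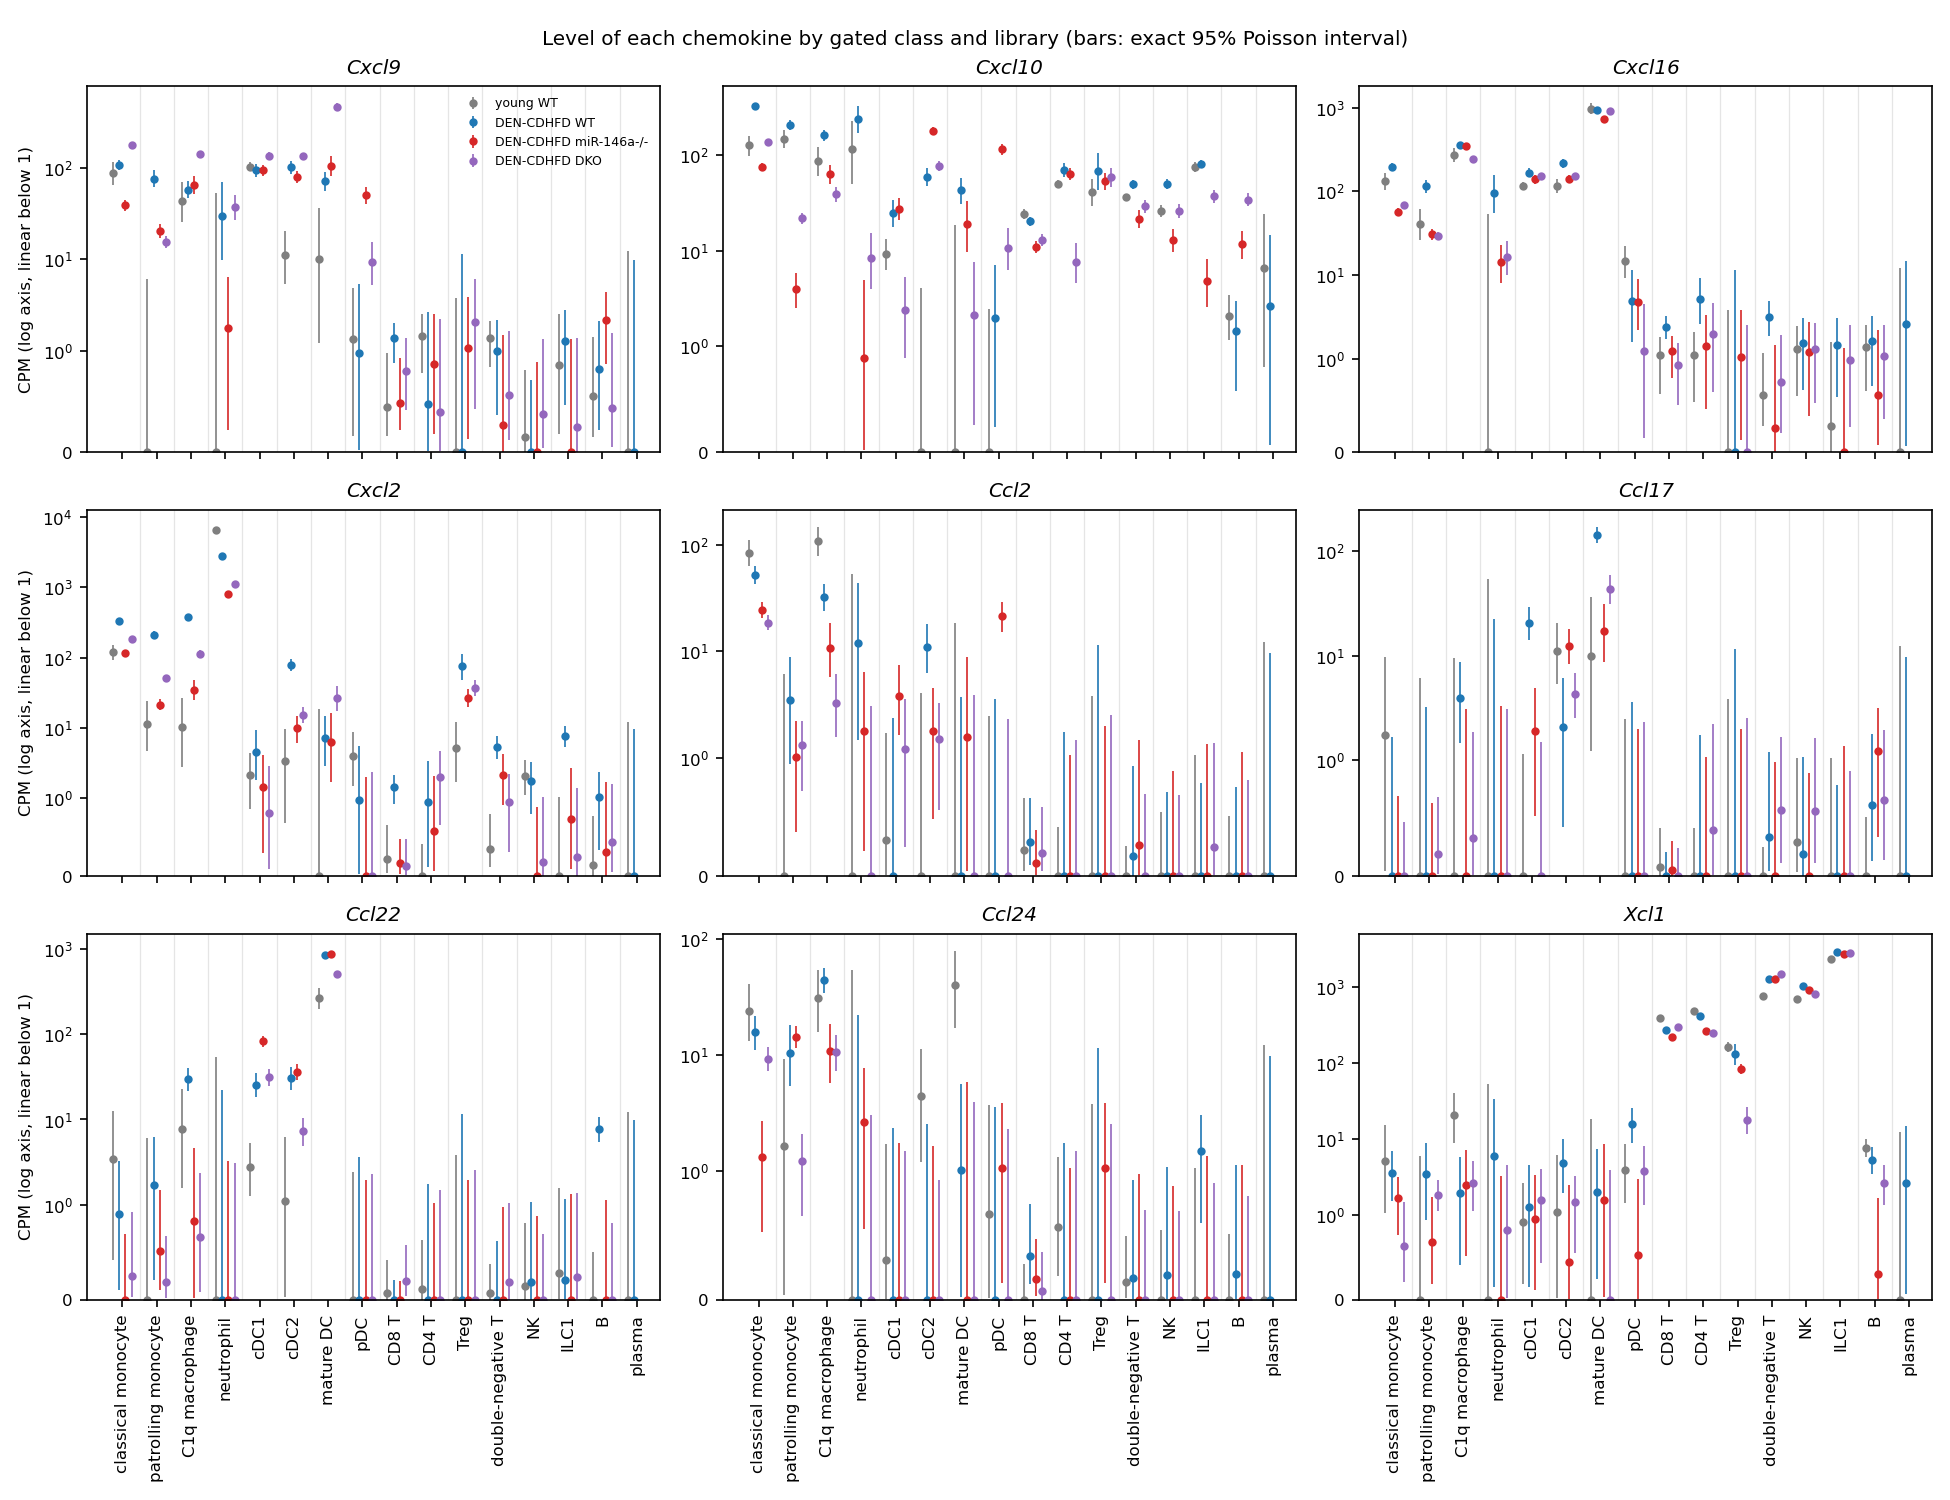
CPM of each chemokine (y axis, logarithmic above 1) in each gated class (x axis), with 1 point per library and bars for the exact 95% Poisson interval. Cxcl16 and Ccl22 peak in mature DC, Cxcl2 in neutrophils and Xcl1 in ILC1, while Cxcl10 is spread over myeloid and lymphoid classes.

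Cxcl9 averaged 163 CPM in mature DC, 108 in cDC1 and 104 in classical monocytes over the 4 libraries, and the ranges of these classes overlapped. In mature DC its levels were 10.0, 72.3, 106 and 464 CPM. DKO was the highest, and 1 cell held 40.5% of its 437 UMIs. In classical monocytes Cxcl9 stood at 88.3, 109, 39.1 and 179 CPM, again highest in DKO, and 31.7, 87.4, 32.5 and 151 CPM without the top cell of each library. In cDC1 it was 103, 95.3, 95.1 and 136 CPM, within a narrower range. After each cell was thinned to 2000 UMIs, 0 of 13, 5 of 63, 3 of 31 and 8 of 53 mature DC carried a Cxcl9 UMI, against 2 of 1156, 1 of 635, 1 of 419 and 0 of 618 B cells, which served as a class that should lack the myeloid ligands. Median UMIs per cell were 16759, 14976, 19932 and 18067 in mature DC and 5446.5, 6537, 6848 and 6216.5 in B cells. Without thinning, the shares in mature DC were 7.69, 20.6, 19.4 and 20.8%. In young WT the 95% interval of the thinned share among the 13 mature DC ran from 0 to 24.7%.

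Cxcl10 averaged 166 CPM in classical monocytes, with a range that overlapped those of patrolling monocytes (95.5) and neutrophils (91.6, with 97.5% of the treated WT UMIs in 1 cell). Its levels in classical monocytes were 126, 324, 76.0 and 137 CPM, highest in treated WT and lowest in miR-146a-/-. Patrolling monocytes showed 148, 207, 3.93 and 22.0 CPM, though 1 cell held 98.9% of the young WT UMIs. ILC1 carried 74.9, 81.2, 4.78 and 37.2 CPM, Treg 41.5, 68.9, 53.5 and 58.8 and B cells 2.07, 1.43, 11.7 and 34.2. In ILC1 1 cell held 67.6% of the young WT UMIs. Without the top cell of each library the levels were 24.3, 74.0, 2.21 and 26.7 in ILC1, 31.6, 28.6, 44.7 and 26.4 in Treg and 0.692, 1.23, 6.49 and 7.51 in B cells, and treated WT over young WT in ILC1 had a log2 ratio of 1.60 in place of 0.12. So the lymphoid level was not uniform, and B cells of young and treated WT lay below the T, NK and ILC1 classes. After thinning, 6 of 43, 34 of 171, 15 of 275 and 29 of 412 classical monocytes carried a Cxcl10 UMI (14.0, 19.9, 5.45 and 7.04%), against 2 of 1156, 1 of 635, 4 of 419 and 2 of 618 B cells. Unthinned shares in classical monocytes were 27.9, 28.5, 9.93 and 11.7%, at median depths of 12957, 12605.5, 19412.5 and 18694 UMIs.

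Cxcl16 (ENSMUSG00000018920, chr11:70453983-70459984, - strand) encodes the membrane-bound ligand of Cxcr6. Its level in mature DC was 972, 924, 728 and 916 CPM. Each of these values lay above every value in C1q macrophages, where Cxcl16 stood at 274, 355, 345 and 245 CPM. Classical monocytes (132, 197, 56.6 and 68.3 CPM) and patrolling monocytes (41.2, 115, 30.8 and 29.5 CPM) were lower, with the peak in treated WT. After thinning, 12 of 13, 51 of 63, 20 of 31 and 40 of 53 mature DC carried a Cxcl16 UMI (92.3, 81.0, 64.5 and 75.5%), against 2 of 1156, 1 of 635, 0 of 419 and 0 of 618 B cells. Unthinned shares in mature DC were 100, 96.8, 100 and 94.3%.

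Cxcl2 was led by neutrophils, at 6556, 2771, 803 and 1121 CPM, and every neutrophil value exceeded every value of the next class, classical monocytes (119.5, 328, 118 and 185 CPM). The neutrophil classes were small, with 15, 18, 71 and 72 cells, and differed in depth, with medians of 3982, 5052, 14989 and 15965 UMIs. Stages of neutrophil maturation were not set apart, and Cxcr2 ranged from 163 to 1078 CPM in this class over the libraries. Young WT was highest in neutrophils, whereas treated WT was highest in classical monocytes. C1q macrophages had 10.3, 377, 35.0 and 114 CPM, with treated WT again highest. After thinning, 11 of 15, 15 of 16, 23 of 71 and 29 of 71 neutrophils carried a Cxcl2 UMI (73.3, 93.8, 32.4 and 40.8%), against 1 of 1156, 2 of 635, 0 of 419 and 0 of 618 B cells, and the unthinned shares were 73.3, 100, 49.3 and 59.7%.

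Ccl2 (ENSMUSG00000035385, chr11:82035571-82037453, + strand), the ligand of Ccr2, was sparse, with 1289 UMIs in all. Classical monocytes held 84.9, 52.3, 24.6 and 18.6 CPM and C1q macrophages 108, 32.3, 10.8 and 3.31 CPM. Counts were few, and 1 cell held 73.8% of the 42 UMIs of young WT C1q macrophages and 67.3% of the 49 of classical monocytes. Without the top cell of each library the levels were 28.3, 38.4, 14.4 and 15.5 CPM in classical monocytes and 29.4, 13.9, 0.846 and 1.99 in C1q macrophages, so that the order of the libraries depended on single cells. Ccl2 lay 1.49 Mb from Ccl5, the gene deleted in the DKO, on chromosome 11. B cells had 0 Ccl2 UMIs in all 4 libraries.

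Ccl17 (ENSMUSG00000031780, chr8:94810453-94812036, + strand) and Ccl22 (ENSMUSG00000031779, chr8:94745590-94751699, + strand) encode the ligands of Ccr4 and lay 58.8 kb apart. Both were led by mature DC. There Ccl22 stood at 261, 841, 857 and 503 CPM, with every value above those of cDC1 (2.76, 25.6, 82.3 and 31.4 CPM). Ccl17 stood at 10.0, 144, 17.3 and 43.5 CPM in mature DC, where 1 cell held 78.7% of the 141 treated WT UMIs. The Ccl17 range in mature DC overlapped that of cDC2, the next class. After thinning, 4 of 13, 20 of 63, 17 of 31 and 20 of 53 mature DC carried a Ccl22 UMI (30.8, 31.7, 54.8 and 37.7%), against 0 of 1156, 1 of 635, 0 of 419 and 0 of 618 B cells. The unthinned shares were 53.8, 69.8, 67.7 and 60.4%. Among thinned mature DC of treated WT, 5 of 6 cells with a Ccl17 UMI also had a Ccl22 UMI, against 15 of 57 without. In DKO the same counts were 2 of 2 and 18 of 51.

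Ccl24 (ENSMUSG00000004814, chr5:135569937-135573049, - strand), a ligand of the eosinophil receptor Ccr3, had 1089 UMIs. C1q macrophages carried 31.0, 44.2, 10.8 and 10.6 CPM and classical monocytes 24.3, 15.8, 1.32 and 9.31 CPM, ranges that overlapped. Its UMIs lay in few cells: in C1q macrophages 1 cell held 73.1% of treated WT and 100% of miR-146a-/- UMIs. Without the top cell of each library the levels were 23.3, 11.9, 0 and 5.67 CPM in C1q macrophages and 7.09, 8.63, 0.566 and 4.60 in classical monocytes.

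Xcl1 (ENSMUSG00000026573, chr1:164931644-164935527, - strand), the ligand of Xcr1 on cross-presenting DC, was led by ILC1 at 2323, 2909.8, 2688 and 2779.7 CPM. Every ILC1 value exceeded every value in double-negative T cells (752, 1286, 1283 and 1479.8 CPM) and NK cells (701, 1025, 903 and 807 CPM). CD4 T (487, 412, 262 and 245 CPM), CD8 T (397, 276, 221 and 295 CPM) and Treg cells (163, 131, 83.9 and 18.0 CPM) followed. Double-negative T and NK cells overlapped in range, and so did CD4 T and CD8 T cells. Double-negative T cells had a median of 10 UMIs of NK markers, and ILC1 a median of 2 UMIs of T cell markers. After thinning, 449 of 559, 519 of 599, 305 of 346 and 493 of 549 ILC1 carried an Xcl1 UMI (80.3, 86.6, 88.2 and 89.8%), against 21 of 1156, 8 of 635, 0 of 419 and 4 of 618 B cells (1.82, 1.26, 0 and 0.647%). The unthinned shares in ILC1 were 83.4, 90.5, 95.4 and 95.7%, at median depths of 6090.0, 7737.5, 7481 and 7195.5 UMIs.

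Treated WT was compared with young WT to ask what differed between the diseased and the young liver. Age and treatment changed together in this pair and cannot be told apart. Over all kept cells Cxcl2, Cxcl16 and Ccl22 were higher in treated WT. A change was counted at 2-fold or more among genes with at least 20 UMIs and 10 CPM in 1 of the 2 libraries. By this rule 3 of the 9 members rose and 0 fell, and 3 (Ccl2, Ccl17 and Ccl24) did not reach the minimum level. Of 8965 genes that reached it, 3.30% rose and 1.42% fell. Cxcl2 stood at 13.2 CPM in young WT and 64.1 in treated WT, 4.87-fold higher (95% interval 4.56 to 5.20). Cxcl16 went from 23.1 to 77.9 CPM, 3.37-fold higher (95% interval 3.21 to 3.55). Ccl22 went from 4.10 to 20.7 CPM, 5.03-fold higher (95% interval 4.48 to 5.67). The level of Cxcl9 (22.5 and 37.7 CPM), Cxcl10 (42.6 and 74.5 CPM) and Xcl1 (462 and 492 CPM) did not pass. The median log2 ratio was 0.83 over the 9 members and 1.28 over the 6 that reached the minimum, against -0.03 over all genes that reached the minimum.

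The makeup of the libraries moved with these levels. Mixed-lineage barcodes held 28.4% of Cxcl2 UMIs in young WT and 49.95% in treated WT. With the class shares of each library set to those of treated WT, the levels in young WT and treated WT were 28.0 and 64.1 CPM for Cxcl2, 50.9 and 77.9 for Cxcl16 and 11.0 and 20.7 for Ccl22, and Cxcl2 alone of the 9 still passed 2-fold. Under the same shares young WT lay above treated WT for Cxcl9 (44.7 and 37.7 CPM), Ccl17 (3.98 and 3.42) and Ccl24 (5.93 and 3.48), the opposite of their order without that step. The median log2 ratio of the 9 was 0.39 with the fixed shares.

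**Figure D2:**
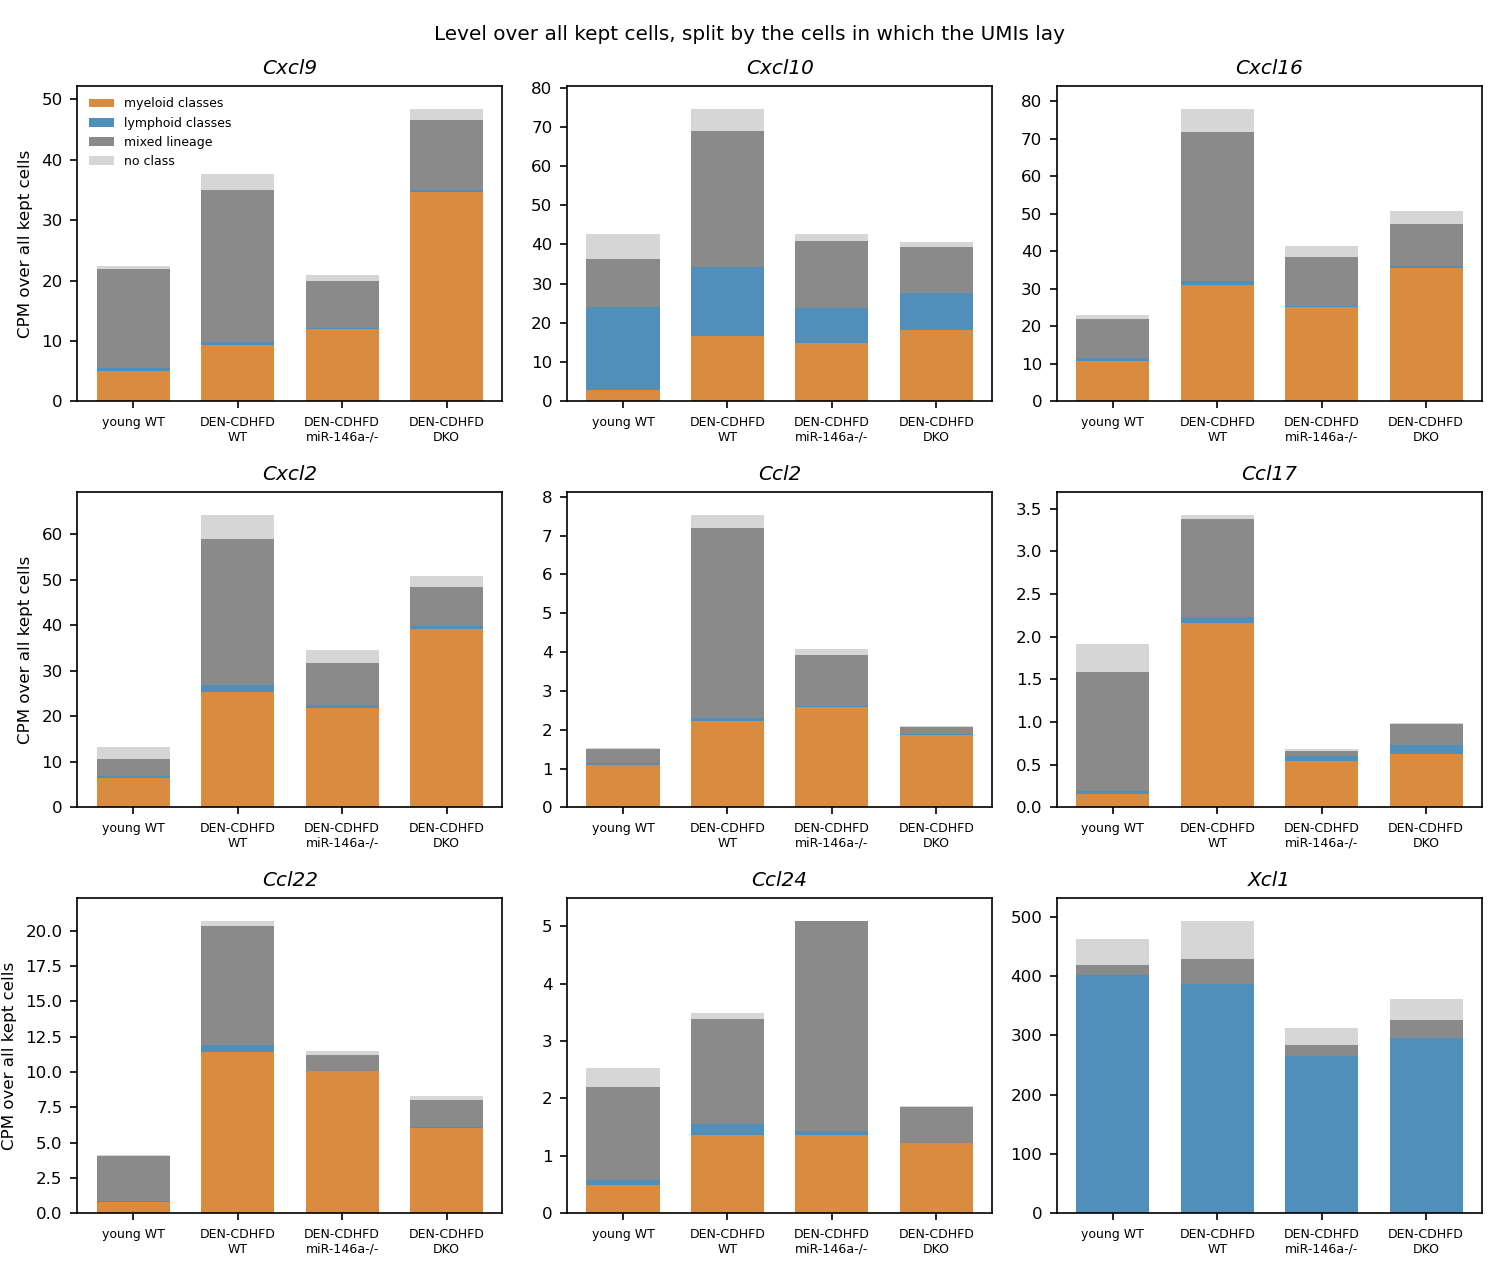
CPM of each chemokine over all kept cells (y axis) in each library (x axis), split by whether the UMIs lay in myeloid classes, lymphoid classes, mixed-lineage barcodes or cells of no class. Treated WT has the highest bar for Cxcl10, Cxcl16, Cxcl2, Ccl2, Ccl17, Ccl22 and Xcl1, and mixed-lineage barcodes make up 49.95% of its Cxcl2 bar.

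Within classical monocytes 2 of the 6 members that reached the minimum rose in treated WT and 0 fell, against 4.53% and 2.13% of 7509 genes. Cxcl10 was 2.54-fold higher (95% interval 2.01 to 3.30) and Cxcl2 was 2.73-fold higher (95% interval 2.14 to 3.57). In young WT 1 of the 43 classical monocytes held 97.1% of the Cxcl2 UMIs. Cluster 11 held the largest share of classical monocytes in young WT (48.8%) and cluster 18 in treated WT (44.2%). Cluster 18 was a C1q macrophage cluster, with 4 macrophage markers and 0 classical monocyte markers among its top 10 genes. Cluster 11 was a classical monocyte cluster. Among classical monocytes of cluster 11 alone the log2 ratios were 3.18 for Cxcl9, 3.62 for Cxcl10, 1.73 for Cxcl16 and 5.61 for Cxcl2, so that 4 members passed, with 21 young WT cells and 2 or fewer UMIs of Cxcl9 and Cxcl2 in them. When cells that also carried markers of another lineage were kept in the class, the Cxcl10 log2 ratio was -0.22.

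C1q macrophages showed 2 members higher in treated WT and 1 lower among 7 that reached the minimum, against 5.72% and 3.41% of 7095 genes. Cxcl2 rose from 4 to 572 UMIs, 32.5-fold higher (95% interval 14.2 to 135). Ccl22 rose from 3 to 45 UMIs, 3.32-fold higher (95% interval 1.23 to 19.3). Ccl2 was 3.36-fold lower (95% interval 2.17 to 5.17), and 1 cell held 73.8% of its UMIs in young WT and another 57.1% in treated WT. Without these cells 11 and 21 UMIs remained, and the log2 ratio was -1.11. These classes held 36 cells of young WT and 120 of treated WT, and cluster 18 held most cells of both.

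Mature DC showed 4 members higher and 0 lower among 5 that reached the minimum, against 10.2% and 2.68% of 5258 genes. Ccl22 was 3.20-fold higher (95% interval 2.44 to 4.36). Ccl17 was 11.5-fold higher (95% interval 3.89 to 119) and Cxcl9 5.81-fold higher (95% interval 1.92 to 60.7), each with 2 UMIs in young WT. Cxcl10 had 0 UMIs in young WT and was at least 2.84-fold higher in treated WT (against a floor of 3 counts in the young WT class), and without the top cell its 14 UMIs fell short of the minimum. Young WT had 13 mature DC. With classes taken from clusters the log2 ratios were -0.31 for Cxcl9, -1.22 for Ccl17 and 0.40 for Ccl22, and with the looser exclusion of other lineages they were -0.71 for Cxcl9 and -0.19 for Ccl17.

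Over the 14 classes compared, 44 of 126 pairs of member and class reached the minimum level, of which 19 rose and 3 fell. Of 93783 pairs of any gene and class that reached it, 3.53% rose and 1.97% fell. In patrolling monocytes Cxcl2 was 17.2-fold higher (95% interval 8.77 to 46.1) and Cxcl9, with 0 UMIs in young WT, at least 15.4-fold higher. The largest share of that class lay in cluster 5, a patrolling monocyte cluster, in young WT (60.6%). In treated WT it lay in cluster 11, a classical monocyte cluster (44.2%). In cDC2 Cxcl9 was 8.78-fold higher (95% interval 4.86 to 19.6) and Cxcl10 at least 17.8-fold higher. Without the top cells the cDC2 log2 ratio of Cxcl9 was 5.47 in place of 3.13, with 1 UMI left in young WT. In cDC1 Ccl22 was 8.89-fold higher (95% interval 4.43 to 21.7). Ccl17 was at least 22.2-fold higher there, with 93.8% of its treated WT UMIs in 1 cell, and without that cell it fell short of the minimum. The 3 pairs that fell were Ccl2 in C1q macrophages, Cxcl16 in pDC and Cxcl2 in neutrophils. Cxcl2 in neutrophils went from 6556 to 2771 CPM, 2.37-fold lower (95% interval 2.07 to 2.70), and its log2 ratio was -0.79 with classes taken from clusters. Without the cell with the most UMIs of the member in each class and library, 20 of 36 pairs that still reached the minimum rose and 3 fell, and 15 and 2 of these were past 2-fold in both counts. The sign turned in 2 pairs past 2-fold, Cxcl10 in cDC1 (1.43 to -0.65) and Cxcl16 in pDC (-1.48 to 0.19), both then short of the minimum.

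The miR-146a-/- library was compared with treated WT to ask what loss of miR-146a changed in diseased liver. Over all kept cells 6 of the 9 members reached the minimum and 0 of these passed 2-fold in either direction, against 1.76% of 8921 genes that rose and 1.14% that fell. The log2 ratios were -0.84 (95% interval -0.93 to -0.76) for Cxcl9, -0.80 for Cxcl10, -0.91 for Cxcl16, -0.89 for Cxcl2, -0.84 for Ccl22 and -0.65 for Xcl1. The 3 members below the minimum went from 3.42 to 0.680 CPM (Ccl17, 288 and 54 UMIs), from 7.52 to 4.08 (Ccl2) and, in the other direction, from 3.48 to 5.08 (Ccl24). The median was -0.84 over the 9 members and -0.84 over the 6 that reached the minimum, against -0.01 over all genes that reached the minimum. Mixed-lineage barcodes held 66.8% of Cxcl9 UMIs in treated WT and 36.5% in miR-146a-/-, and 41.0% and 9.73% of Ccl22 UMIs. With the class shares of treated WT, Cxcl2 stood at 23.7 CPM in miR-146a-/- and passed 2-fold, and the median log2 ratio of the 9 was -0.79.

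Classical monocytes of miR-146a-/- carried less of 6 of the 9 members, which were all that reached the minimum. These were Cxcl9, Cxcl10, Cxcl16, Cxcl2, Ccl2 and Ccl24, and 0 rose, against 4.20% and 3.10% of 7931 genes. Cxcl10 went from 324 to 76.0 CPM, 4.26-fold lower (95% interval 3.76 to 4.82). Cxcl16 went from 197 to 56.6 CPM, 3.48-fold lower (95% interval 3.001 to 4.05). Cxcl9 was 2.79-fold lower (95% interval 2.31 to 3.38) and Cxcl2 2.77-fold lower (95% interval 2.49 to 3.09). Ccl2 was 2.13-fold lower (95% interval 1.64 to 2.75). Ccl24, with 35 and 7 UMIs, was 11.4-fold lower (95% interval 5.25 to 32.0), and without the top cells 19 and 3 remained, short of the minimum.

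The 2 monocyte classes differed in makeup and depth. Treated WT had 172 classical monocytes with a median of 12605.5 UMIs, with the largest share in cluster 18 (44.2%), and miR-146a-/- had 282 with a median of 19412.5, with the largest share in cluster 11 (77.7%). By their leading genes cluster 18 was a C1q macrophage cluster and cluster 11 a classical monocyte cluster. The gated class of treated WT thus lay in large part among macrophage-like cells, while cluster 11 held 71 of its 172 cells. Within cluster 11 alone there were 21, 71, 219 and 312 classical monocytes. Their levels were 6.63, 74.5, 20.4 and 95.3 CPM for Cxcl9 and 19.9, 264, 66.5 and 156 for Cxcl10. There the log2 ratios of miR-146a-/- over treated WT were -1.87 for Cxcl9, -1.99 for Cxcl10, -1.67 for Cxcl16, -1.13 for Cxcl2 and -0.67 for Ccl2, so that 4 of the 6 remained past 2-fold and Ccl2 did not. Ccl24 had 0 UMIs in cluster 11 in both libraries. With classes taken from clusters, 2 members were lower and 1 was higher.

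C1q macrophages of miR-146a-/- showed 5 members lower and 0 higher among 7 that reached the minimum, against 3.34% and 2.09% of 7308 genes. Cxcl2 went from 377 to 35.0 CPM, 10.6-fold lower (95% interval 7.86 to 15.1). Cxcl10 was 2.53-fold lower (95% interval 1.95 to 3.33) and Ccl2 2.90-fold lower (95% interval 1.59 to 5.98). Ccl22, with 45 UMIs against 1, was 24.0-fold lower (95% interval 6.07 to 1435), and Ccl24 was 3.95-fold lower (95% interval 2.23 to 8.04). In treated WT 1 cell held 73.1% of the Ccl24 UMIs, and in miR-146a-/- 1 cell held 100%. Without these cells Ccl24 had 18 and 0 UMIs, short of the minimum. Without its top cells Cxcl10 had a log2 ratio of -0.94 and did not pass. For Cxcl2 and Ccl2 the log2 ratios went from -3.41 to -4.36 and from -1.53 to -3.49 without their top cells. That left 1 Ccl2 UMI in miR-146a-/- against 21 in treated WT. Cxcl16 (-0.04, 95% interval -0.23 to 0.14) and Cxcl9 (0.17, 95% interval -0.29 to 0.62, both as log2 ratios) did not pass. Cluster 18 held most of this class in both libraries.

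In mature DC 2 members fell and 0 rose among 5 that reached the minimum, against 5.94% and 3.87% of 5371 genes. Ccl17 was 7.95-fold lower (95% interval 4.49 to 17.0) and Cxcl10 2.20-fold lower (95% interval 1.17 to 4.72). In treated WT 1 cell held 78.7% of the Ccl17 UMIs and in miR-146a-/- 1 cell held 81.8%. Without these cells 30 and 2 UMIs of Ccl17 remained (log2 ratio -2.94), and Cxcl10 had 14 and 2, short of the minimum. Ccl22 was at 841 and 857 CPM, a log2 ratio of 0.03 (95% interval -0.13 to 0.19). Mature DC numbered 63 in treated WT and 31 in miR-146a-/-.

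Over the 13 classes compared, 49 of 117 pairs of member and class reached the minimum level, of which 24 fell and 7 rose. Of 99639 pairs of any gene and class that reached it, 3.66% fell and 2.85% rose. Patrolling monocytes had lower Cxcl2 (9.88-fold lower, 95% interval 7.95 to 12.4), and Cxcl9, Cxcl10 and Cxcl16 fell there as well. The largest share of this class lay in cluster 11, a classical monocyte cluster, in treated WT (44.2%). In miR-146a-/- it lay in cluster 5, a patrolling monocyte cluster (76.1%). Cxcl10 went from 81.2 to 4.78 CPM in ILC1, 16.4-fold lower (95% interval 9.82 to 32.2). In NK cells it was 3.81-fold lower (95% interval 2.86 to 5.25), with the largest share of cells in cluster 9 in treated WT and in cluster 10 in miR-146a-/-. Cxcl2 in neutrophils was 3.45-fold lower (95% interval 3.08 to 3.87), and its log2 ratio was -1.79 by total UMIs and -1.23 with TMM scaling, whose factors for neutrophils were 1.22 in treated WT and 0.831 in miR-146a-/-. The neutrophil classes held 18 and 71 cells, and their makeup by maturation stage was not examined. Among the pairs that rose, Cxcl10 in cDC2 was 3.01-fold higher (95% interval 2.39 to 3.86) and Ccl22 in cDC1 3.18-fold higher (95% interval 2.27 to 4.66). In B cells Cxcl10 was 7.71-fold higher (95% interval 3.60 to 21.6), with 44.7% of its miR-146a-/- UMIs in 1 cell, without which it fell short of the minimum. Cxcl9, Cxcl10 and Ccl2 rose in pDC, where 1 cell held 91.5%, 96.3% and 97.5% of their miR-146a-/- UMIs, and without the top cell of each they fell short of the minimum. Without the cell with the most UMIs of the member, 18 of 38 pairs fell and 4 rose, and 17 and 2 of these were past 2-fold in both counts. Cxcl2 in Treg cells, a pair that fell, turned and was past 2-fold the other way (-1.51 to 1.89), and Ccl17 in cDC2, a pair that rose, turned (2.40 to -1.38) with too few UMIs left for the minimum.

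Xcl1 passed 2-fold in 0 of the 4 compared classes where it reached the minimum (CD4 T, Treg, NK and ILC1), though without the top cells its log2 ratio in CD4 T cells was -1.07. The largest share of CD4 T cells lay in cluster 22 in treated WT and in cluster 31 in miR-146a-/-. Of these cells 85 of 252 and 110 of 459 lay within 1 UMI of the gate. In ILC1 Xcl1 stood at 2909.8 and 2688 CPM, a log2 ratio of -0.11 (95% interval -0.16 to -0.07). Cells gated as ILC1 made up 7.42% of treated WT and 4.45% of miR-146a-/- cells.

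**Figure D3:**
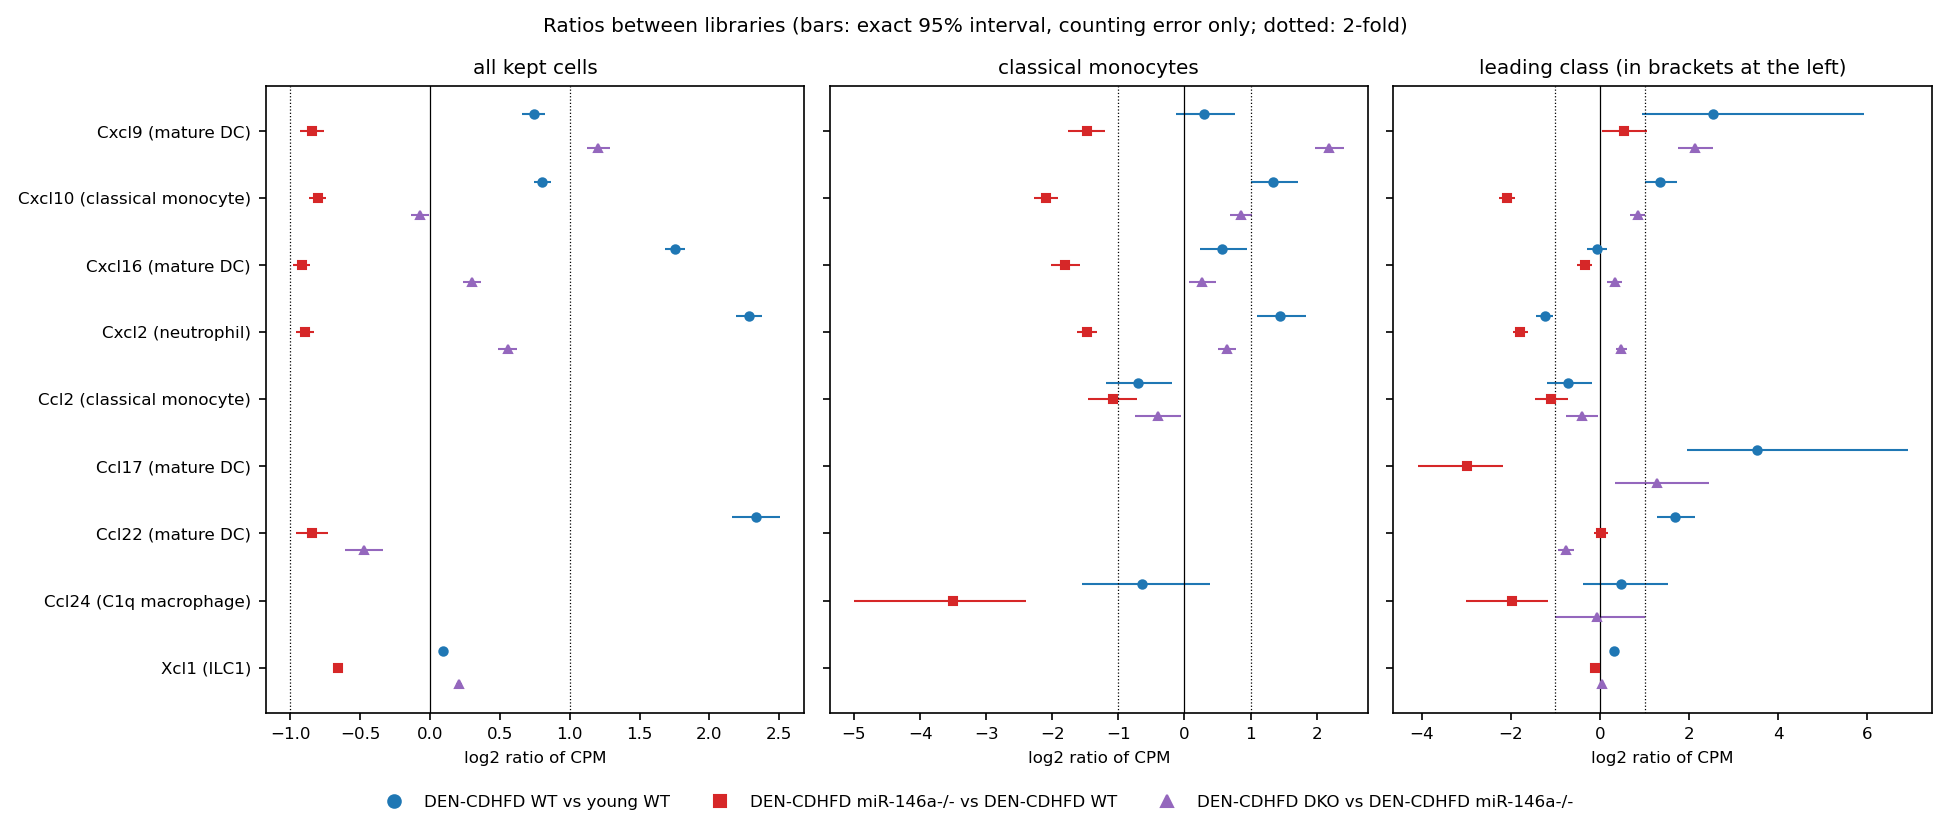
Log2 ratio of CPM (x axis) of each chemokine (y axis) for the 3 comparisons over all kept cells, in classical monocytes and in the class named in brackets, with exact 95% intervals, and dotted lines at 2-fold. Points below the minimum level or with a count of 0 in 1 library are left out, and in classical monocytes the 6 points for miR-146a-/- over treated WT lie beyond the left dotted line.

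The DKO library was compared with miR-146a-/- to ask what deletion of Ccl5 changed in mice that lack miR-146a. Cxcl9 passed 2-fold over all kept cells and in classical monocytes, C1q macrophages and mature DC. It did not pass in cDC1 (log2 ratio 0.52), cDC2 (0.75) or patrolling monocytes (-0.41, and 2.08 without the top cells). In neutrophils Cxcl9 rose (4.09) and in pDC it fell (-2.37), and without the top cells neither reached the minimum. Over all kept cells it went from 21.0 to 48.4 CPM, 2.30-fold higher (95% interval 2.18 to 2.44). It was the 1 that rose of the 6 members that reached the minimum, and 0 fell, against 0.917% and 0.396% of 8836 genes. The other members that reached the minimum had log2 ratios of -0.07 (Cxcl10), 0.30 (Cxcl16), 0.56 (Cxcl2), -0.47 (Ccl22) and 0.21 (Xcl1). Below the minimum, Ccl24 went from 5.08 to 1.86 CPM, Ccl2 from 4.08 to 2.10 and Ccl17 from 0.680 to 0.992. The median was 0.21 over the 9 and 0.25 over the 6 that reached the minimum, against -0.03 over all genes that reached the minimum. With the class shares of treated WT, Cxcl9 stood at 20.5 and 37.2 CPM and did not pass 2-fold, and the median log2 ratio of the 9 was -0.03.

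In classical monocytes Cxcl9 went from 39.1 to 179 CPM, 4.56-fold higher (95% interval 3.95 to 5.31). It was 1 member higher and 0 lower among 5 that reached the minimum, against 0.427% and 0.168% of 7732 genes. Cluster 11 held most of this class in both libraries, and within it the log2 ratio of Cxcl9 was 2.22 and that of Cxcl10 1.23, so that 2 members passed there. Over the whole class Cxcl10 stood at 76.0 and 137 CPM, a log2 ratio of 0.85 (95% interval 0.68 to 1.02). It reached 1.65 with an upper limit of 4500 detected genes per cell. With classes taken from clusters, 0 members passed.

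C1q macrophages showed 2 members higher, Cxcl9 and Cxcl2, and 0 lower among 5 that reached the minimum, against 3.16% and 1.10% of 7911 genes. Cxcl9 was 2.15-fold higher (95% interval 1.70 to 2.79) and Cxcl2 3.23-fold higher (95% interval 2.37 to 4.62), with 52.9% of the DKO Cxcl2 UMIs in 1 cell. Cluster 18 held the largest share of this class in miR-146a-/- (54.1%) and cluster 12 in DKO (39.4%). The most common class in cluster 12 was patrolling monocytes (37.1% of its cells).

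Mature DC showed 3 members higher, Cxcl9, Cxcl2 and Ccl17, and 0 lower among 5 that reached the minimum, against 4.64% and 2.58% of 5303 genes. Cxcl9 went from 106 to 464 CPM, 4.36-fold higher (95% interval 3.39 to 5.77), and its log2 ratio was 0.85 with classes taken from clusters. Ccl17 was 2.43-fold higher (95% interval 1.27 to 5.41). Without the top cells 2 Ccl17 UMIs remained in miR-146a-/- and 23 in DKO, a log2 ratio of 2.63 in place of 1.28. Cxcl2 was 3.82-fold higher (95% interval 1.45 to 16.6), with 4 and 25 UMIs, and without the top cells 1 and 4 remained, short of the minimum. Cxcl16, at 728 and 916 CPM, and Ccl22, at 857 and 503 CPM, did not pass.

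Over the 13 classes compared, 46 of 117 pairs of member and class reached the minimum level, of which 12 rose and 11 fell. Of 101130 pairs of any gene and class that reached it, 1.37% rose and 0.921% fell. Cxcl10 rose in ILC1 (7.53-fold higher, 95% interval 4.42 to 14.97) and in patrolling monocytes (5.48-fold higher, 95% interval 3.63 to 8.98). It fell in cDC1 (10.6-fold lower, 95% interval 4.94 to 32.4) and in CD4 T cells (8.15-fold lower, 95% interval 5.22 to 14.1), whose largest share lay in cluster 31 in miR-146a-/- and in cluster 22 in DKO. Of these CD4 T cells 110 of 459 in miR-146a-/- and 94 of 323 in DKO lay within 1 UMI of the gate. Ccl22 fell in cDC1 (2.61-fold lower, 95% interval 1.99 to 3.47) and in cDC2 (4.87-fold lower, 95% interval 3.19 to 7.81). In cDC2 its log2 ratio was -1.38 without the top cells, in place of -2.28. Ccl2 in pDC, with 0 UMIs in DKO, was at least 11.3-fold lower, and 1 cell held 97.5% of the UMIs in miR-146a-/-, without which it fell short of the minimum. Xcl1 fell in Treg cells from 83.9 to 18.0 CPM, 4.60-fold lower (95% interval 3.07 to 7.37), where 34 of 221 and 34 of 200 cells lay within 1 UMI of the gate. Without the cell with the most UMIs of the member, 10 of 34 pairs rose and 7 fell, and 8 and 6 of these were past 2-fold in both counts. The sign turned in 3 pairs past 2-fold, all then short of the minimum: Cxcl9 in neutrophils (4.09 to -1.67), Ccl17 in cDC2 (-1.52 to 1.05) and Ccl24 in patrolling monocytes (-3.51 to 0.23). The 3 comparisons share libraries, so that a level that is high in treated WT enters 2 of them.

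Patterns across classes were compared by Pearson correlation of log levels over 57 points, each a class in 1 library with at least 20 cells. The points share libraries and depth, and the coefficients are descriptions. Cxcl9 and Cxcl16 were closest among the members (r = 0.90), followed by Ccl17 and Ccl22 (0.83) and Ccl2 and Ccl24 (0.75). Cxcl9 and Cxcl10, both ligands of Cxcr3, had r = 0.19. Xcl1 ran opposite to Cxcl9 (-0.72) and Cxcl16 (-0.71). Among 6350 other genes the gene most like each member was Cttnbp2nl for Cxcl9 (0.91), Zbp1 for Cxcl10 (0.62), Tnfrsf11a for Cxcl16 (0.96), Clec4d for Cxcl2 (0.89), Msr1 for Ccl2 (0.80), Ehf for Ccl17 (0.82), Arhgap28 for Ccl22 (0.89), Lpl for Ccl24 (0.80) and Cd160 for Xcl1 (0.98). Within thinned classical monocytes of treated WT, 6 of 13 cells with a Cxcl9 UMI also had a Cxcl10 UMI, against 28 of 158 without.

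The receptors of the 9 ligands were led by other classes than their ligands in most cases. Cxcr3, for Cxcl9 and Cxcl10, averaged 326 CPM in CD4 T cells and 314 in double-negative T cells. Its ranges in these classes overlapped each other and those of Treg cells and ILC1. Cxcr6, for Cxcl16, averaged 499.6 CPM in double-negative T cells and 471 in ILC1. Its ranges there overlapped each other and those of CD4 T and CD8 T cells (278 to 497 CPM in CD8 T). Double-negative T cells were gated on the absence of Cd4, Cd8a, Cd8b1 and Foxp3 UMIs, so that T cells with undetected Cd4 can fall among them. In young WT cluster 3 held the largest share of both CD4 T (54.6%) and double-negative T cells (54.3%). Ccr4, for Ccl17 and Ccl22, averaged 65.9 CPM in Treg cells, with every value above those of CD4 T cells. Xcr1, for Xcl1, averaged 368 CPM in cDC1, and Ccr3, for Ccl24, averaged 19.2 CPM in Treg cells, with a range that overlapped that of cDC1. In 2 cases ligand and receptor shared their leading class: Cxcl2 and Cxcr2 (419.9 CPM) in neutrophils, and Ccl2 and Ccr2 (561 CPM) in classical monocytes. For both Ccl2 and Ccr2 the range in classical monocytes overlapped that in C1q macrophages.

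**Figure D4:**
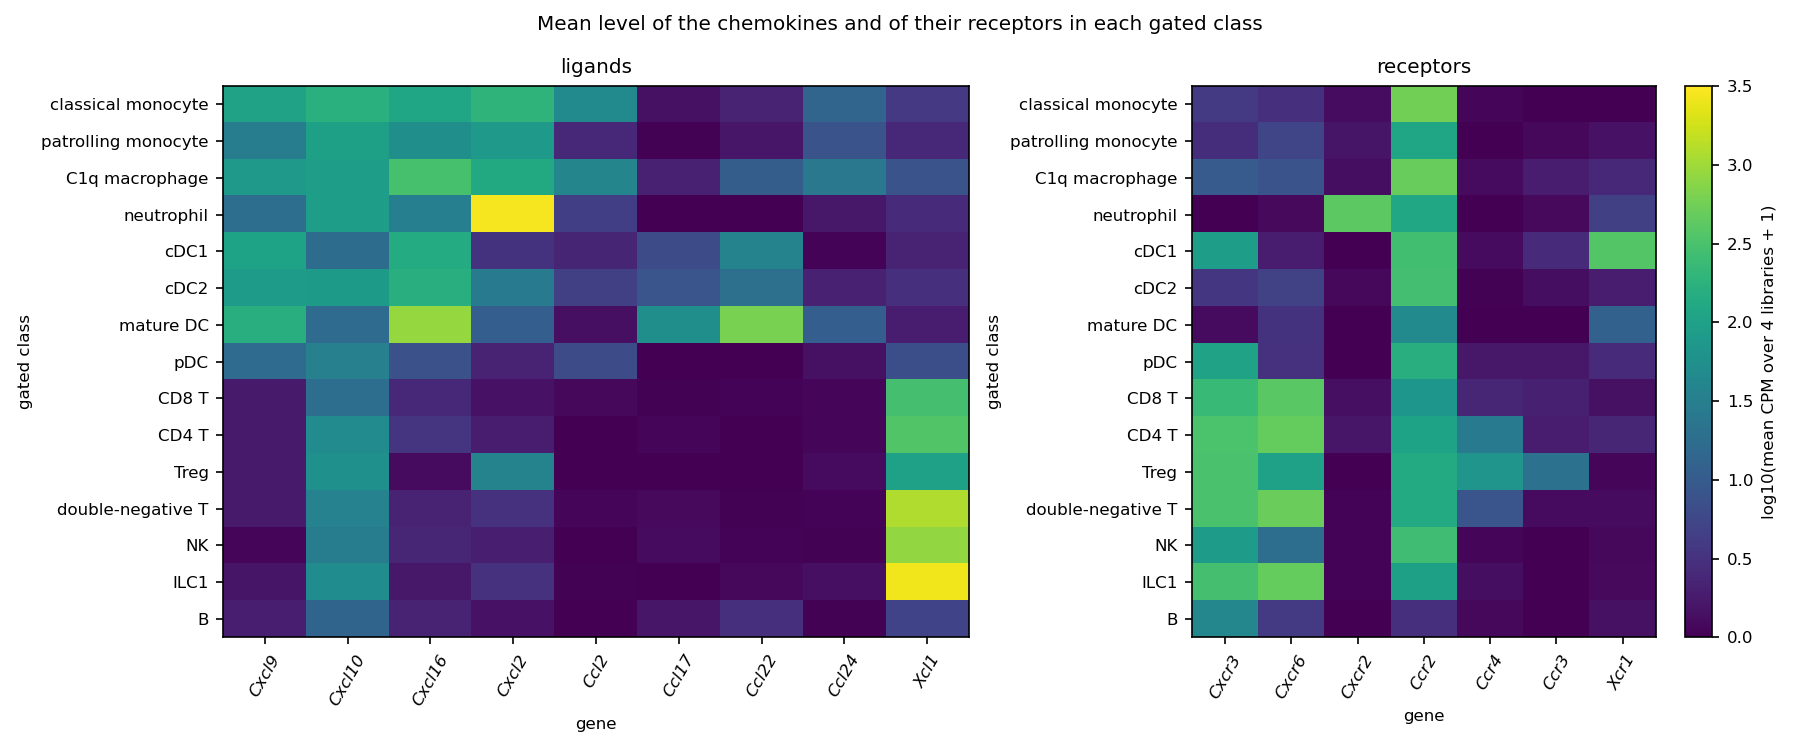
Mean level over the 4 libraries, as log10 of CPM plus 1 (color), of the 9 ligands (left) and their 7 receptors (right) in each gated class (rows), without plasma cells. Xcr1 stands out in cDC1 and Xcl1 in ILC1, while Cxcl2 and Cxcr2 both stand out in neutrophils.

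Over all kept cells 4 of the 7 receptors reached the minimum level in each comparison. Xcr1 fell in treated WT, from 26.7 to 10.8 CPM (log2 ratio -1.31), and cDC1, which carry it, made up 1.42% of young WT and 0.792% of treated WT cells. In the other comparisons 0 receptors passed. Cxcr3 stood at 209, 140.1, 139.6 and 121 CPM and Cxcr6 at 329.8, 256, 185 and 154 CPM. In classical monocytes 1 of the 7 receptors (Ccr2) reached the minimum, and it did not pass in any comparison.

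Of 28 other chemokine ligands, 27 were found among the genes counted. Over all kept cells Ccl5, Ccl6 and Ccl9 rose in treated WT and 0 fell, among 6 that reached the minimum, against 3.30% and 1.42% of 8965 genes. In miR-146a-/- against treated WT, Ccl1 rose (log2 ratio 1.89) and 0 fell, among 7, against 1.76% and 1.14% of 8921 genes. In DKO against miR-146a-/-, Ccl1 (-1.03) and the deleted Ccl5 (-7.58) fell and 0 rose, among 7, against 0.396% and 0.917% of 8836 genes. In classical monocytes Ccl3 and Ccl4 rose in treated WT, where 4.53% of 7509 genes rose. In DKO Ccl4, Pf4 and Ppbp rose there and Ccl5 fell, against 0.427% and 0.168% of 7732 genes. In miR-146a-/- Ccl3, Ccl4 and Ccl5 fell there and 0 rose, among 6 that reached the minimum, against 4.20% and 3.10% of 7931 genes. The largest share of classical monocytes lay in cluster 18 in treated WT (44.2%) and in cluster 11 in miR-146a-/- (77.7%). The genes of these lists were not followed in cluster 11 alone. Ccrl2, the 1 of 5 atypical receptors that reached the minimum, rose over all kept cells in treated WT (1.10) and fell in classical monocytes of miR-146a-/- (-1.37).

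Of 9 NF-kB genes, Tnfaip3 fell over all kept cells of miR-146a-/- (-1.27), where 1.14% of 8921 genes fell. The others did not pass in any comparison over all kept cells. In classical monocytes of miR-146a-/-, Tnfaip3 (-1.44), Tnf (-1.77) and Il1b (-1.96) fell and 0 rose, against 4.20% and 3.10% of 7931 genes. That class had its largest share in cluster 18 in treated WT (44.2%) and in cluster 11 in miR-146a-/- (77.7%). NF-kB and interferon genes were not followed in cluster 11 alone. Tnf rose in classical monocytes of treated WT (1.60), where 4.53% of 7509 genes rose. Of 7 interferon genes, 0 passed over all kept cells in any comparison. In classical monocytes Irf7 fell in treated WT (-1.02), against 2.13% of 7509 genes, and 0 passed in the other comparisons. Over the genes that reached the minimum in classical monocytes of miR-146a-/- against treated WT, the median log2 ratio was -0.48 for the 9 NF-kB genes, -0.56 for 6 interferon genes and 0.01 for all genes. Ifng, which induces Cxcl9 and Cxcl10, stood at 187, 131, 76.7 and 53.7 CPM over all kept cells. In miR-146a-/- against treated WT its log2 ratio was -0.77 there, which did not pass, and it fell in ILC1. NK cells, which had the highest pooled level of Ifng (275 CPM), were not compared for this list, and a link to the ligands was not tested.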

How the data were processed

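Cells sorted for CD45 from liver were measured in 4 libraries, 1 per group. The counts are UMIs per gene and barcode that the authors made with Cell Ranger (7.0.1 per the file headers, on mm10) and deposited unnormalized. The study's methods name another version, and whether intronic reads were counted was not stated. Kept barcodes had 600 to 6000 features, with mitochondrial UMIs limited to 5%. Classes were gated on marker UMIs, and cells with at least 5 UMIs of another lineage were set apart. Clusters came from 3000 variable genes, 30 principal components, 15 neighbors and Leiden resolution 2 (scanpy 1.11.5, leidenalg 0.10.2). UMIs were summed per class and library in Python 3.11.15, and ratios used a prior of 0.5 counts in classes with at least 10 cells in both libraries. TMM factors came from edgeR 4.0.16. The statistics were tested on simulated data. The members, the receptors, other ligands, atypical receptors, interferon and NF-kB lists were chosen with earlier results of these data known. Gate thresholds, and the alternatives without the top cell, without shared barcodes and with cluster 11 alone, were set with the data seen. The marker symbols Trgc1 and Trgc2 matched no gene, since the matrix uses Tcrg-C1 and Tcrg-C2, and of these Tcrg-C1 was among the markers.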

Additional observations from a re-analysis of the deposited data

Results flagged for a closer look

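Cxcl10 in miR-146a-/- against treated WT went opposite ways in 2 classes: its log2 ratio was 1.59 in cDC2 and -5.69 in patrolling monocytes, a difference of 7.28. Without the cell with the most Cxcl10 UMIs in each class and library these ratios were 1.51 and -5.35. The patrolling monocytes had their largest share in classical monocyte cluster 11 in treated WT (44.2%) and in cluster 5 in miR-146a-/- (76.1%). Cxcl10 in DKO against miR-146a-/- had log2 ratios of 2.91 in ILC1 and -3.41 in cDC1, a difference of 6.32, and of 3.49 and -3.11 without that cell. Ccl22 in miR-146a-/- against treated WT had log2 ratios of 1.67 in cDC1 and -4.58 in C1q macrophages, a difference of 6.25, and of 1.56 and -5.21 without that cell. These 3 were picked out because 1 class rose and the other fell. With 1 library per group the differences were not tested.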

How the results depend on the processing

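Every count of members past 2-fold over all kept cells and in classical monocytes was unchanged with TMM scaling, every barcode kept, a mitochondrial limit of 10%, a prior of 5 counts and without shared barcodes, and in classical monocytes also with stricter gates, which were not applied over all kept cells. For treated WT against young WT over all kept cells, the 3 members higher became 5 at 1.5-fold, 4 as the mean over cells, 2 with a minimum of 50 CPM and 1 with the class shares of treated WT. For miR-146a-/- against treated WT, the 0 lower became 2 with a limit of 4500 features, 2 as the mean over cells, 6 at 1.5-fold and 1 with those class shares. For DKO against miR-146a-/-, the 1 higher became 0 with a minimum of 50 CPM and 0 with those class shares.

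In classical monocytes of treated WT against young WT, the 2 higher became 1 with the looser exclusion of other lineages, 3 with classes from clusters, 3 without the top cell and 4 in cluster 11 alone, and the 0 lower became 2 with the looser exclusion and 2 at 1.5-fold. For miR-146a-/- against treated WT, the 0 higher became 1 with classes from clusters, and the 6 lower became 2 with classes from clusters, 4 in cluster 11 alone, and 5 with the looser exclusion, with a minimum of 50 CPM and without the top cell. For DKO against miR-146a-/-, the 1 higher became 3 with 4500 features, 0 with classes from clusters, 2 as the mean over cells, 3 at 1.5-fold, 2 without the top cell and 2 in cluster 11 alone.

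Of ratios past 2-fold in leading classes, those that turned were, for treated WT against young WT, Cxcl9 in mature DC (-0.71 with the looser exclusion, -0.31 with classes from clusters), Cxcl10 in classical monocytes (-0.22 with the looser exclusion) and Ccl17 in mature DC (-0.19 and -1.22). Counting these and ratios that were not past 2-fold, the sign changed in leading classes in 6 of 27 without the top cell, 6 with the looser exclusion, 4 with classes from clusters, 2 as the mean over cells, 2 with 4500 features, 1 with every barcode kept and 0 under each other alternative. Without the top cell they were Ccl2 in classical monocytes and Ccl24 in C1q macrophages for treated WT against young WT and for DKO against miR-146a-/-, and Cxcl9 and Ccl22 in mature DC for miR-146a-/- against treated WT. For ratios over all kept cells the sign changed in 4 of 27 with the class shares of treated WT, in 1 each with 4500 features, as the mean over cells and with every barcode kept, and in 0 under each other alternative. In other classes, without the top cell, 2 pairs past 2-fold turned for treated WT against young WT, 2 for miR-146a-/- against treated WT and 3 for DKO against miR-146a-/-. In each case the cause was not tested. Of 27 ratios in leading classes, beside those that turned from past 2-fold, 17 moved beyond their counting interval with classes from clusters (10 up, 7 down), 13 as the mean over cells (7 up, 6 down), 10 with the looser exclusion (5 up, 5 down), 10 with 4500 features (5 up, 5 down), 9 without the top cell (6 up, 3 down) and 3 or fewer under each other alternative compared in all 27. In cluster 11 alone, where 6 ratios were compared, 3 moved (3 up). Of 27 ratios over all kept cells, 21 moved with the class shares of treated WT (4 up, 17 down), 20 with 4500 features (12 up, 8 down), 19 as the mean over cells (8 up, 11 down), 7 with every barcode kept (3 up, 4 down), 5 without shared barcodes (2 up, 3 down), 5 without the top cell (4 up, 1 down), 1 with TMM scaling and 0 under each other alternative. Of 36 shares of cells with a UMI, 34 were higher without thinning, 22 of them beyond the interval, and 26 were lower at 1000 UMIs, 13 of them beyond it, so that these shares depend on depth. In young WT the ratios rest on 13 mature DC, 15 neutrophils and 43 classical monocytes.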
